A study of Mus musculus with 4 samples.

Results

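The 38 genes described here belong to the 4 Hox clusters of the mouse and were chosen by name alone, as symbols that join Hox, a cluster letter from a to d and a paralog number. They make up 38 of the 22305 named genes on the arrays, with 10 genes in Hoxa, 10 in Hoxb, 9 in Hoxc and 9 in Hoxd, and each was represented by 1 probe set. RNA of primary rib chondrocytes was measured with 4 whole-transcript arrays (Affymetrix Mouse Gene ST 1.0), 2 with wild-type cells (Wt) and 2 with cells that had lost Eed (Eed cKO). Cells of both groups came from pups of 0.5 days with a mixed C57B6/129Sv background, were released with collagenase and were cultured overnight in medium with fetal calf serum. In the cKO mice a floxed Eed gene was deleted by the transgene Col2-Cre, whose Cre is driven by a mouse Col2a1 promoter, so cells of the rib preparation that never used this promoter would keep Eed. Controls were littermates by the study's methods, and neither the labels nor the methods used here say whether the Wt pups carried a floxed allele or Cre. The samples are called biological duplicates, but how many pups went into an array is not stated, so p-values cover only the spread between these arrays, which may be technical.

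Hox genes encode homeodomain transcription factors that give segments of the embryo their identity along the body axis. Genes at the 3′ end of a cluster, with low paralog numbers, are switched on early and reach far forward, whereas genes at the 5′ end, with high numbers, act late and towards the tail. Where a segment does not use a Hox gene, Polycomb repressive complex 2 (PRC2), of which Eed is a core subunit, marks its chromatin with H3K27me3 and helps to keep it silent, and ribs form from thoracic segments, in which the genes at the far 5′ end are normally off.

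Values are signal intensities on a linear scale, and the median signal of an array lay between 830 and 837. Differences are log2(signal + 32) of Eed cKO minus Wt from limma, with a standard error (SE), a 95% interval and a p-value adjusted by Benjamini-Hochberg over all 14944 genes whose mean signal passed a limit of 626. A gene is said to have risen or fallen only at an adjusted p under 0.05. Eed had a signal of 3597 and 3530 on the Wt arrays against 1057 and 990 on the Eed cKO arrays, a difference of -1.77 (SE 0.07, adjusted p = 7.59e-05). The cartilage markers Col2a1 and Sox9 were bright in both groups, with Col2a1 between 36621 and 37633 and Sox9 between 27160 and 28243. Xist, which coats the inactive X chromosome, was high on Wt 1 and Eed cKO 2 (17820 and 17196) and low on Wt 2 and Eed cKO 1 (3634 and 4845), and Ddx3y of the Y chromosome showed the reverse, so that the split by sex markers crossed the groups.

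Loss of Eed was accompanied by higher signals of Hoxb9, Hoxc9, Hoxc12 and Hoxc13, all 4 from the 5′ side of their clusters, and by a lower signal of Hoxd12. The largest of these differences was that of Hoxc12, at 1.22, and Hoxb9, Hoxc13 and Hoxc9 followed at 0.87, 0.85 and 0.65. Of the 38 Hox genes 28 were bright enough to be tested, 4 rose, 1 fell, and 23 did not pass. The called share was 17.9% of tested Hox genes against 15.6% of all tested genes, and the share that rose was 14.3% against 9.63%, with 5.98% of all tested genes falling. The median difference of the 28 was 0.05 against 0.00 over all tested genes. Hoxa9, Hoxc11 and Hoxc12 had a Wt mean under the limit and passed it through the Eed cKO arrays, and Hoxd12 passed it through the Wt arrays, so these shares and medians are given as a description. RNA of a mixed preparation was measured, in which fewer cells of a type and less RNA per cell cannot be told apart.

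**Figure D1:**
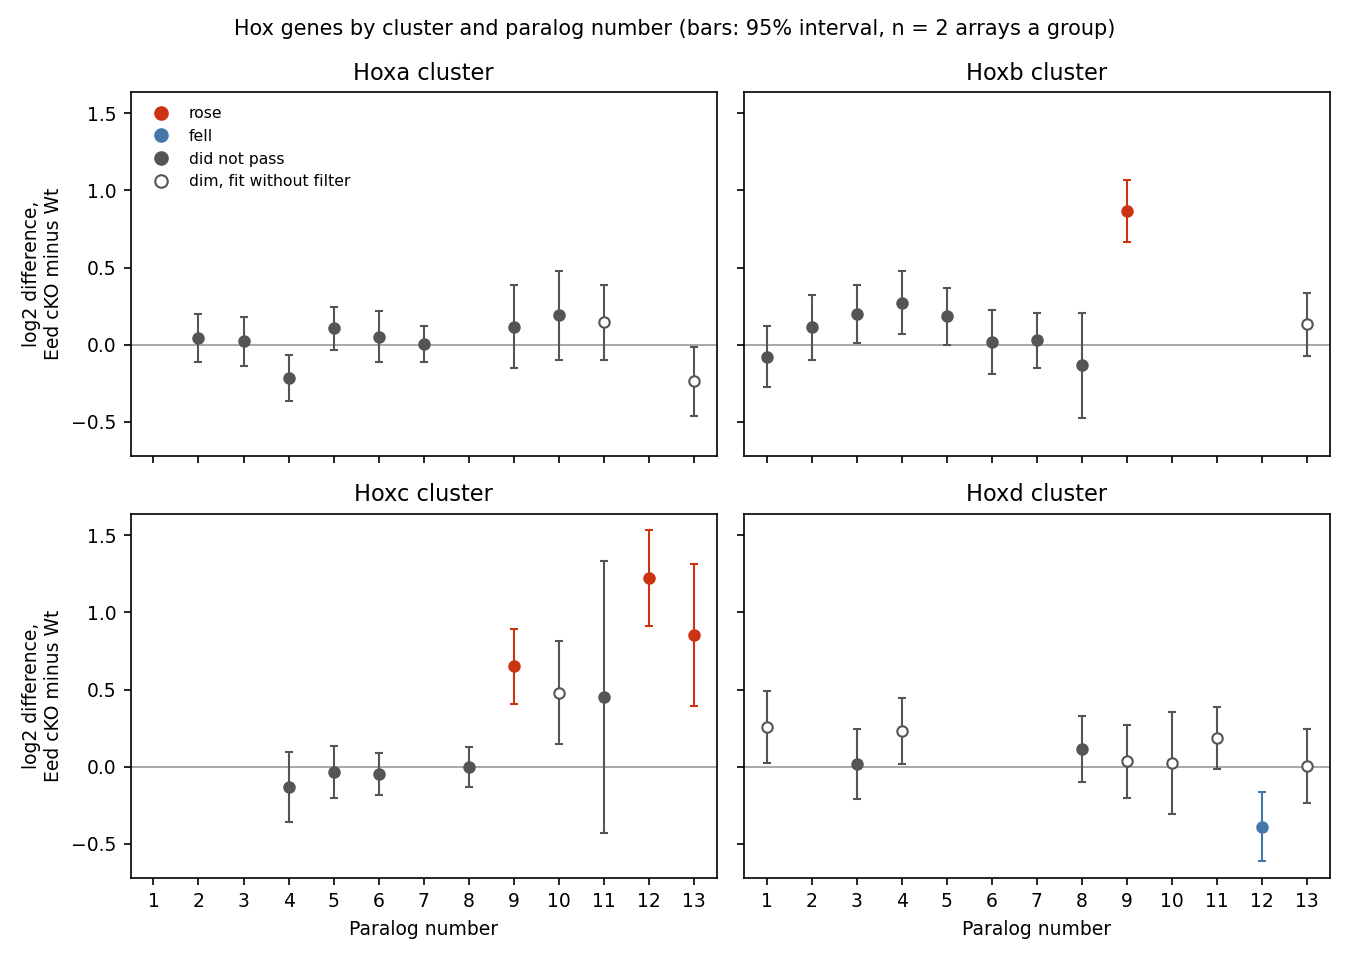
Log2 difference of signal, Eed cKO minus Wt, for each Hox gene by paralog number (x axis), with 1 panel per cluster. Points are limma estimates from 2 arrays a group, bars are 95% intervals, and open circles are dim genes taken from the fit without the limit on low signals. The 4 genes that rose lie at paralog numbers 9, 12 and 13 of Hoxb and Hoxc, and the 1 that fell is Hoxd12.

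The called genes had high paralog numbers. None of the 6 tested genes of groups 1 to 3 and none of the 14 of groups 4 to 8 was called, whereas 4 rose and 1 fell among the 8 tested genes of groups 9 to 13, where 15.6% of all tested genes were called. Of these 8, Hoxa9, Hoxc11, Hoxc12 and Hoxd12 passed the limit only through the group with the higher mean, and another 8 genes of the band were too dim. The median difference of the tested genes was 0.03, 0.01 and 0.55 in the 3 bands, but over all members, with the dim ones from the fit without the limit, it was 0.04, 0.02 and 0.17. Genes of a band share clusters and neighbours, so these values are a description.

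In the Hoxc cluster the genes up to Hoxc8 are described apart from those from Hoxc9 on, a division made after their values were seen. Hoxc4, Hoxc5, Hoxc6 and Hoxc8 lay between -0.13 and 0.00 with a median of -0.04, and on each of these 4 genes the Wt and Eed cKO signals overlapped. Hoxc4, the 3′ end of the cluster, had signals of 1171 and 1082 in Wt and of 956 and 1101 in Eed cKO cells (adjusted p = 0.408). Hoxc9, Hoxc10, Hoxc11, Hoxc12 and Hoxc13 lay between 0.45 and 1.22, with the value of the dim gene Hoxc10 from the fit without the limit. All 5 had a ratio of group means over 1.25, the fold rule of the study, which 7.35% of all named genes passed upwards and 4.9% downwards. Because the division was drawn from these same values, the share is no test of it, and the Hoxc11 groups overlapped.

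Hoxc8, which shapes the thoracic vertebrae and their ribs, had a signal of 15917 and 14977 on the Wt arrays and of 16229 and 14672 on the Eed cKO arrays. The groups overlapped, and the difference was 0.00 with an interval from -0.13 to 0.13 (adjusted p = 0.994). Hoxc9, its 5′ neighbour, had signals of 1399 and 1192 in Wt and of 2177 and 1920 in Eed cKO cells. Both Eed cKO arrays lay above both Wt arrays, and the difference of 0.65 (SE 0.10, adjusted p = 0.00796) kept its call when any 1 array was left out. Group 9 Hox genes act together in the lower thorax, where they help to separate ribs that reach the sternum from floating ribs. Whether the change of Hoxc9 differed from that of Hoxc8 was not tested.

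Hoxc10 was dim on every array. Its paralog group holds back rib formation in the lumbar segments. The signals were 317 and 387 in Wt and 441 and 568 in Eed cKO cells, so the groups did not overlap, but all 4 values lay under the limit. The fit without the limit gave 0.48 (interval 0.14 to 0.81, adjusted p = 0.0817).

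Hoxc11, whose group patterns the sacral region, had the largest SE of the 28 tested genes. Its signals were 350 and 741 in Wt and 980 and 515 in Eed cKO cells. The higher array of each group was the one with low Xist signal, and Wt 2 lay above Eed cKO 2. The difference of 0.45 had an SE of 0.37 and an adjusted p of 0.467. It was -0.06 without Wt 1 and 0.96 without Wt 2 (adjusted p = 0.0323), and with the split by Xist signal as a term, added after the data were seen, its adjusted p was 0.0270.

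Hoxc12 had signals of 438 and 406 in Wt and of 1174 and 895 in Eed cKO cells. Both Wt arrays lay under the limit, so this gene entered the test only through its higher signal in Eed cKO cells, and 78 of the tested genes rose by more. The difference was 1.22 (SE 0.13, interval 0.91 to 1.53, adjusted p = 0.00180), and without any 1 array it lay between 1.03 and 1.41. On the linear scale the Eed cKO mean was 2.45 times the Wt mean.

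Hoxc13, at the 5′ end of the cluster and known for its control of keratin genes in hair and nails, had signals of 1014 and 757 in Wt and of 1942 and 1333 in Eed cKO cells. The groups were apart, but the Eed cKO arrays differed from each other by more than the lower of them differed from Wt 1. The difference of 0.85 had an SE of 0.19 and an adjusted p of 0.0284. It was no longer called when the intensity trend was left out of limma (adjusted p = 0.0633) or the split by Xist signal was a term (0.0540).

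**Figure D2:**
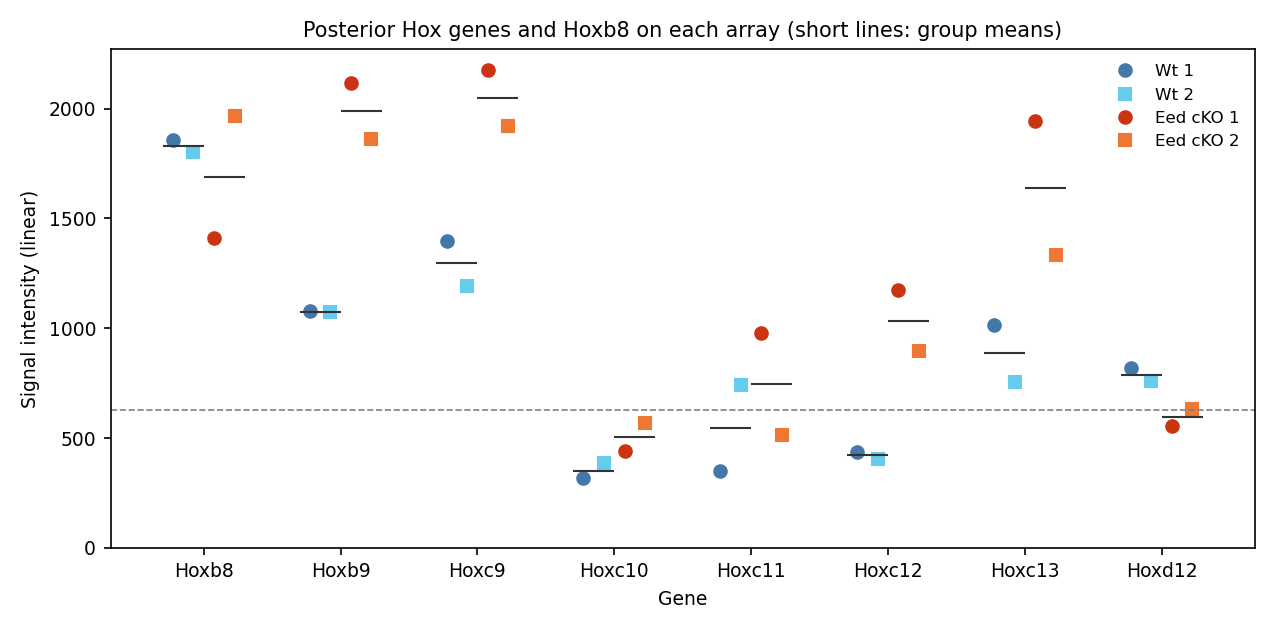
Signal intensity (linear axis from 0) of 8 Hox genes on each of the 4 arrays, with short lines for the group means and a dashed line at the limit for testing. Both Eed cKO arrays lie above both Wt arrays for Hoxb9, Hoxc9, Hoxc10, Hoxc12 and Hoxc13 and below them for Hoxd12, while the groups overlap for Hoxb8 and Hoxc11.

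The Hoxb cluster held 1 gene that rose, Hoxb9. Its signals were 1079 and 1072 in Wt and 2119 and 1862 in Eed cKO cells. The Wt arrays were almost equal and far below the Eed cKO arrays, the difference was 0.87 (SE 0.09, interval 0.66 to 1.07, adjusted p = 0.00132), and it stayed between 0.77 and 0.96 without any 1 array. The next gene on the 3′ side, Hoxb8, did not pass. Its signals were 1859 and 1802 in Wt and 1412 and 1966 in Eed cKO cells, with the lowest and the highest value both in the Eed cKO group. The difference was -0.13 (adjusted p = 0.586), and it was -0.37 without Eed cKO 2 (adjusted p = 0.0220) and 0.10 without Eed cKO 1.

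Hoxb3, Hoxb4 and Hoxb5 did not pass after adjustment, with differences of 0.20, 0.27 and 0.18, although both Eed cKO arrays lay above both Wt arrays for each. Hoxb4, a gene of the neck region that is also used in blood stem cells, had signals of 702 and 700 in Wt and of 808 and 900 in Eed cKO cells (adjusted p = 0.0801), and it was called when Eed cKO 1 was left out (0.0358). Hoxb2, a hindbrain gene, differed by 0.11, and Hoxb6 and Hoxb7 by 0.02 and 0.03. Hoxb1, the 3′ end of the cluster and a marker of a single hindbrain segment, had signals of 818 and 772 in Wt and of 726 and 780 in Eed cKO cells, which overlapped (-0.08, adjusted p = 0.591). Hoxb13, which lies far to the 5′ side and acts in the tail and the prostate, was dim at 454 and 456 in Wt and 509 and 495 in Eed cKO cells.

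In the Hoxa cluster none of the 8 tested genes was called. The differences ran from -0.22 for Hoxa4 to 0.19 for Hoxa10. Hoxa4, another gene of the neck region, had signals of 4210 and 4186 in Wt and of 3456 and 3760 in Eed cKO cells. The Eed cKO arrays were both lower, and the adjusted p was 0.0608, which passed the threshold with quantile normalization (0.0430) and without Eed cKO 2 (0.0257). Hoxa2, the 3′-most Hoxa gene described and the selector of the second pharyngeal arch, had overlapping signals of 3355 and 3174 in Wt and of 3251 and 3474 in Eed cKO cells, a difference of 0.04 with an interval from -0.11 to 0.20 (adjusted p = 0.714). Hoxa7, active in thoracic segments, had a difference of 0.00 with an interval from -0.11 to 0.12.

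The paralog of Hoxb9 and Hoxc9 in this cluster, Hoxa9, gave a different picture. Its signals were 587 and 621 in Wt and 589 and 732 in Eed cKO cells. These groups overlapped, and the difference was 0.12 with an interval from -0.15 to 0.38 (adjusted p = 0.546). Hoxa10 had 858 and 1001 in Wt and 960 and 1175 in Eed cKO cells, and here too the groups overlapped (adjusted p = 0.342). Hoxa11, needed with its Hoxd paralog for the forearm bones, was dim with signals from 576 to 713. Hoxa13, which acts in the hand, foot and genital region, was dim and lower in Eed cKO cells, with 445 and 450 in Wt against 360 and 390 in Eed cKO cells (-0.24 without the limit, adjusted p = 0.173).

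In the Hoxd cluster 6 of 9 genes were dim, and of the 3 tested genes Hoxd12 fell. Hoxd12 takes part in forming the digits. Its signals were 817 and 758 in Wt and 556 and 632 in Eed cKO cells, so both Eed cKO arrays were lower, near the limit of 626. The difference was -0.39 (SE 0.09, adjusted p = 0.0352), and the gene was no longer called once Wt 1 (0.165), Wt 2 (0.0669) or Eed cKO 1 (0.0703) was left out. Hoxd3 and Hoxd8, genes of the neck and the trunk, differed by 0.02 and 0.12 and did not pass (adjusted p = 0.922 and 0.436).

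The neighbours of Hoxd12 were too dim for the test. Hoxd13, the 5′ end of the cluster and the main gene of digit formation, was dim at 587 and 501 in Wt and 530 and 558 in Eed cKO cells, with a difference of 0.00 without the limit. Hoxd11 was dim at 555 and 527 in Wt and 609 and 631 in Eed cKO cells, and both Eed cKO arrays were higher (0.19, adjusted p = 0.235). Hoxd9 and Hoxd10 were dim with overlapping groups. On the 3′ side Hoxd1 had 350 and 334 in Wt against 396 and 436 in Eed cKO cells, and Hoxd4 had 423 and 405 against 507 and 477. For both the groups were apart, yet neither passed in the fit without the limit (adjusted p = 0.159 and 0.171).

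**Figure D3:**
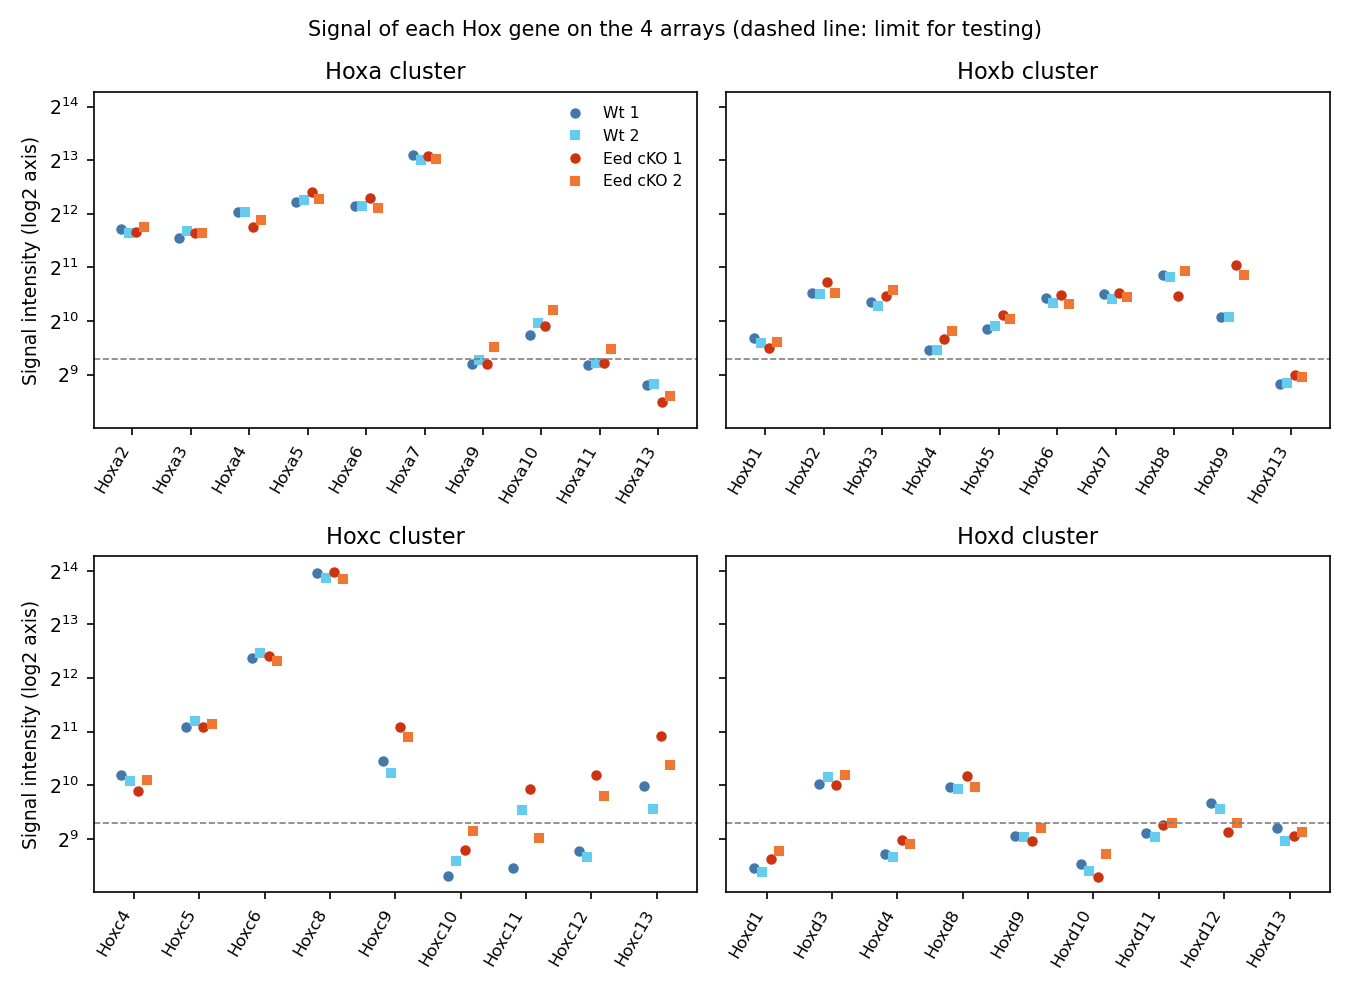
Signal intensity (log2 axis) of all 38 Hox genes on the 4 arrays, with genes in the order of their paralog numbers and a dashed line at the limit for testing. Signals of different genes come from different probes and are not to be ranked, and the spacing of the 4 arrays within a gene is the measurement.

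Over all 38 genes both Eed cKO arrays lay above both Wt arrays for 15 genes (39.5%) and below them for 3 (7.89%), and 20 overlapped. Over all named genes these shares were 27.6% and 27.7%, and over the tested genes 31.1% and 29.1%. A ratio of group means over 1.25 was found for 6 Hox genes (15.8%), namely Hoxb9 and the 5 genes from Hoxc9 to Hoxc13. Without the limit on low signals the same 5 Hox genes were called, where 6.26% of all 22305 genes rose, 3.89% fell and 10.2% did either. The 10 dim genes are Hoxa11, Hoxa13, Hoxb13, Hoxc10, Hoxd1, Hoxd4, Hoxd9, Hoxd10, Hoxd11 and Hoxd13. Their signals ran from 312 to 713 and their differences from -0.24 to 0.48, with 4 at an unadjusted p under 0.05 and 0 after adjustment. These are from the fit without the limit, for which no unadjusted share of all genes is given, so the 4 are a description. Of the 23 tested genes that did not pass, 22 had a 95% interval within 0.5 of 0 on either side and 12 within 0.3, and the exception at 0.5 was Hoxc11. Only Hoxa4, Hoxb3, Hoxb4 and Hoxb5 among the 23 had an unadjusted p under 0.05. Over the whole array 4554 of the 14944 tested genes did, the called ones included.

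PRC2 is drawn in mammals to promoters rich in CpG dinucleotides, so these were counted in the 250 bases before each start in the RefSeq promoter table (mouse build GRCm38.p6). It held windows for 22 of the 38 genes, 9 in Hoxa, 3 in Hoxb, 1 in Hoxc and 9 in Hoxd, and among the called genes only for Hoxd12. The 22 genes had a median of 12 CpG, with a range from 2 to 35, against 6 over all genes in the table. At least 10 CpG were found for 13 of the 22, against 38.2% of all genes. The windows of Hoxd13, Hoxd12 and Hoxd11 are printed because they are neighbours in the genome around the 1 gene that fell. They lie on the plus strand at chr2:74667975-74668224, chr2:74674763-74675012 and chr2:74679308-74679557, and capitals mark each CG.
Hoxd13: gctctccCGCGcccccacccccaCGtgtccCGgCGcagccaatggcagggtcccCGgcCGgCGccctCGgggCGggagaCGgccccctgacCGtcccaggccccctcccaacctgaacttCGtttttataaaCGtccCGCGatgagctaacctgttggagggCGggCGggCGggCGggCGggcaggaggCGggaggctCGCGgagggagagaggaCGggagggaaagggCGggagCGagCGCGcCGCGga
Hoxd12: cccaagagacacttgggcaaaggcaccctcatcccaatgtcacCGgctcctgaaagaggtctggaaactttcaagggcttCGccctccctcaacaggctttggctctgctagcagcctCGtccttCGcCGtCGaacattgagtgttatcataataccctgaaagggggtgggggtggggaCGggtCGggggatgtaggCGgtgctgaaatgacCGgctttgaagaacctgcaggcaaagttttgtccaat
Hoxd11: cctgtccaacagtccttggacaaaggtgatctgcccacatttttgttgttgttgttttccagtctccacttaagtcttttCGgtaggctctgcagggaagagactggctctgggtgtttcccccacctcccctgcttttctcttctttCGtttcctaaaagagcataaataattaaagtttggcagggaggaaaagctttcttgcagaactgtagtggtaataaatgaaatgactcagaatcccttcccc

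The window of Hoxd13 held 31 CpG, more than 95.1% of promoters, and that of Hoxd12 held 10. The Hoxd11 window shown held 2 CpG and a second start of this gene had 20. CpG number differed widely among genes whose measured differences were 0.00, -0.39 and 0.19. The motif TGATNNAT, a short form of the site that Hox proteins bind together with Pbx proteins, was searched on both strands of the same 250 bases, with the first listed window of each gene. It was found for 3 of the 22 genes (13.6%) against 7.91% of all promoters.

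Hox clusters also hold microRNAs, and some of these lie next to genes that rose. Mir196a-1 lies between Hoxb13 and Hoxb9 at chr11:96265187-96265208, and Mir196a-2 lies between Hoxc10 and Hoxc9 at chr15:102973365-102973386, both on the plus strand. Mir196b lies between Hoxa10 and Hoxa9 at chr6:52230129-52230150 on the minus strand. Mir10a lies beside Hoxb4 at chr11:96317186-96317208 and Mir10b beside Hoxd4 at chr2:74726074-74726096, both on the plus strand. The mature forms are printed from RefSeq (GRCm38.p6) to show that each family shares 1 seed, given in capitals as bases 2 to 8.
miR-196a-5p: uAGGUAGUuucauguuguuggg
miR-196b-5p: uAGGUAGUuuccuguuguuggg
miR-10a-5p: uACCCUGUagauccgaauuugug
miR-10b-5p: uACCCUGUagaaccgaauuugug

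Both Mir196a genes give the same mature sequence, and miR-196b-5p has the same seed. The miR-10 sequences share another. No probe set of the arrays was named for these microRNAs, so their levels were not analysed here. In mouse embryos miR-196 directs the cleavage of Hoxb8 RNA. The difference of Hoxb8 here was -0.13 and did not pass, with arrays that pointed in opposite directions as given above. A link between miR-196 and this value was not tested.

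Beyond the Hox genes, 19 listed genes in or beside the clusters were on the arrays and 14 were tested, and their median difference was 0.05. Of these 14, 4 rose, beside 9.63% of all tested genes, and 10 stayed short of the threshold. Calcoco1, a coactivator and autophagy receptor beside Hoxc, had signals of 4053 and 4183 in Wt and of 5509 and 5700 in Eed cKO cells, a difference of 0.44 (adjusted p = 0.00271). Mtx2, a mitochondrial import gene beside Hoxd, rose by 0.34 (adjusted p = 0.0146), and this call was lost without Wt 1 (0.0744). Atp5g3, a subunit of ATP synthase, rose by 0.16 (0.0292), and Hnrnpa1, a splicing factor on the Hoxc side, by 0.15 (0.0364). Leaving out Wt 1 (0.158) or Eed cKO 1 (0.0677) ended the call of Atp5g3, and leaving out Wt 1 (0.0871), Wt 2 (0.224) or Eed cKO 1 (0.0734) that of Hnrnpa1. Evx2, the homeobox gene beside Hoxd13, differed by 0.02 (0.908), and Evx1 beside Hoxa13 was dim, as were the antisense genes Haglr and Hoxd3os1 of the Hoxd cluster.

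Partners of Hox proteins were measured as well. Pbx, Meis and Pknox proteins are homeodomain cofactors that bind DNA together with Hox proteins. All 8 cofactor genes described were tested, of which 3 rose, 1 fell and 4 did not pass, beside 9.63% and 5.98% of all tested genes, and their median difference was 0.13. Meis3 had signals of 1030 and 1002 in Wt and of 1680 and 1612 in Eed cKO cells, and both Eed cKO arrays were far above both Wt arrays (0.68, SE 0.07, adjusted p = 0.00186). Pbx2 had signals of 3942 and 3735 in Wt and of 5145 and 5007 in Eed cKO cells (0.40, SE 0.06, adjusted p = 0.00499), and neither of these calls was lost with any 1 array left out.

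Pbx3 rose by 0.29 (adjusted p = 0.0214), and its call was lost without Wt 1 (0.0763) or the intensity trend (0.0599). Pknox2 fell from 1923 and 1800 to 1545 and 1417 (-0.32, adjusted p = 0.0369). It was not called once Wt 1 (0.242), Wt 2 (0.100) or Eed cKO 2 (0.0724) was left out. Meis2, a limb gene, differed by 0.20 and did not pass (0.0654), and Meis1, Pknox1 and Pbx4 differed by 0.02, 0.05 and -0.06.

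**Figure D4:**
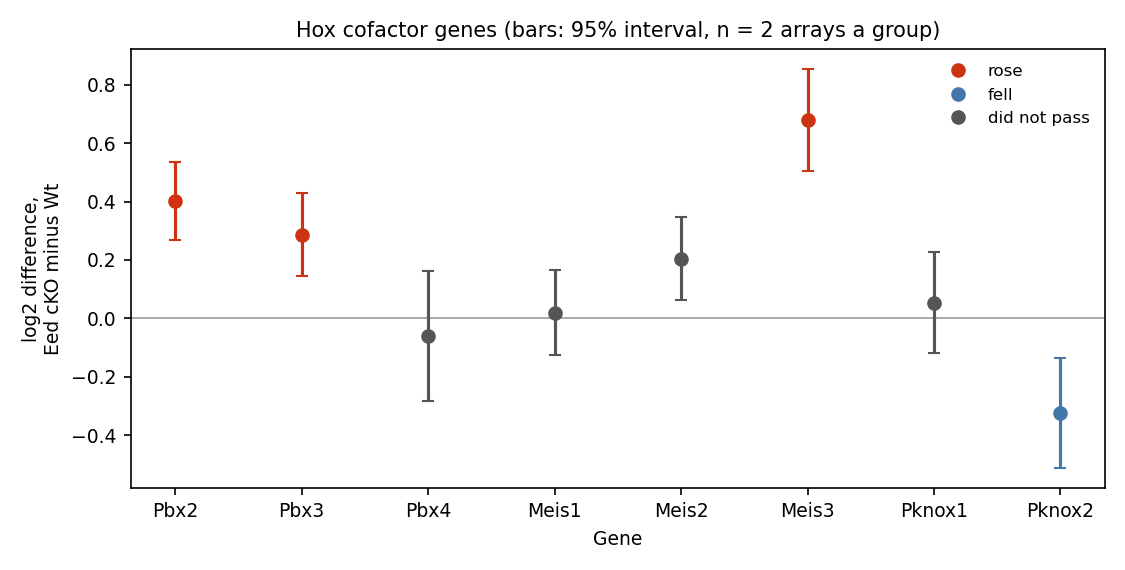
Log2 difference of signal, Eed cKO minus Wt, of 8 Hox cofactor genes (x axis). Points are limma estimates from 2 arrays a group and bars are 95% intervals. Pbx2, Pbx3 and Meis3 rose, with Meis3 highest at 0.68, and Pknox2 fell by 0.32.

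Of the related ParaHox and Cdx genes 4 were tested and 0 were called by limma. An unadjusted p under 0.05 was found for 1 of them, beside 4554 of the 14944 tested genes. Among 14 genes that activate Hox chromatin, including the methyltransferase gene Kmt2a, only Psip1 was called, with a difference of -0.23 (adjusted p = 0.0407). With all probe sets of Psip1 averaged its sign turned, with a difference of 0.096 (adjusted p = 0.485), so the fall rests on the brightest probe set. Psip1 was also not called when Wt 1, Wt 2 or Eed cKO 1 was left out, with differences of -0.25, -0.22 and -0.22. Among 11 subunits of PRC2 Jarid2 rose and Eed, the deleted gene, fell. Among 17 subunits of Polycomb repressive complex 1, which binds H3K27me3, Bmi1 and Phc2 rose and Pcgf6 fell. The share called over all tested genes, beside which these lists are given, was 15.6%.

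Markers of other cells and of body regions moved between the groups as well. Of 14 fibroblast and perichondrium markers 9 rose, 1 fell and 4 did not pass, beside 9.63% and 5.98% of all tested genes that rose and fell. Their median difference was 0.63, and their summed signal was 86951 to 91869 in Wt and 102181 to 109171 in Eed cKO cells. The smallest p-values were those of Prrx2, Prrx1, Twist1 and Twist2, transcription factor genes of mesenchyme, with rises of 1.36, 0.73, 1.21 and 1.17. The marker that fell was Dcn, from 27236 and 29199 in Wt to 23250 and 24307 in Eed cKO cells (-0.25, adjusted p = 0.00914). Its call was lost without the intensity trend (0.0659). Lum, Col3a1, Osr2 and Postn did not pass, at -0.06, 0.01, 0.09 and 0.23, and none of the 14 was dim. Of 13 genes of the limb and of axial regions Tbx5, Meox2 and Tbx15 rose by 0.84, 1.73 and 1.40, 7 did not pass and 3 were dim. Tbx15 had Wt signals of 470 and 614, under the limit, and entered the test only through its Eed cKO signals of 1416 and 1533. The filter at the 50th percentile no longer tested it. The median difference of the 10 tested was -0.01, and the summed signals were 14211 to 14657 and 17328 to 19306, with Meox2 going from a mean of 911 to 3202. Hindlimb genes did not pass, with 0.16 for Tbx4 and -0.13 for Pitx1.

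The summed signal of 15 chondrocyte markers was 336103 to 339430 in Wt and 324460 to 332322 in Eed cKO cells. Matn1 rose, Acan and Cnmd fell, 12 did not pass, and the median difference was -0.07. The Eed cKO arrays were both lower for Col2a1, Acan, Sox9, Matn3, Col9a1, Col9a2, Col11a1, Col11a2, Hapln1, Cnmd and Ucma, beside 29.1% of tested genes. For Sox5, Sox6 and Comp the groups overlapped. Neural and Schwann cells, which also use Hox genes, had 10 markers, of which 6, Tubb3 and Elavl4 among them, were dim and the 4 tested did not pass, with summed signals of 6199 to 6310 and 6459 to 6696. Of 8 tested muscle markers Myod1, Des and Chrna1 rose and Ttn fell, with sums of 21385 to 22010 and 20562 to 21098. Of 6 tested endothelial markers Cdh5 rose and Plvap fell, of 7 macrophage markers C1qb and Cd14 fell, and of 4 red cell markers Alas2 fell. The medians of these lists were 0.17, 0.00 and -0.08. Endothelial sums were 8420 to 8549 in Wt and 8928 to 9398 in Eed cKO cells. Alas2 passed the limit through the Wt arrays, with a mean of 786 against 622 in Eed cKO cells. Beside these counts, 9.63% of all tested genes rose and 5.98% fell. The part of these cell types and regions in the differences of Hoxb9, Hoxc9, Hoxc12, Hoxc13 and Hoxd12 was not tested.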

How the data were processed

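Signals of 35512 probe sets were deposited by the authors as intensities on a linear scale, 1 column per array. A supplementary sheet name of the study mentions dChip, and nothing read here states the background correction or the normalization. The other deposited table repeated these intensities (largest difference 0). The columns of the authors' own ratios, which hold their fold changes, were not used. An array has no read depth, so the number of arrays limits the precision. Names were updated through RefSeq (GRCm38.p6), and the brightest probe set stood for each of 22305 genes. Genes over the 33rd percentile of mean signal entered a limma fit (version 3.58.1, R 4.3.3) of log2(intensity + 32). It used lmFit, eBayes with trend and group as the only factor, two-sided. In arrays simulated with the spread that limma itself had fitted, the test recovered the largest changes set. Such arrays check the code and not the assumptions of the model.

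The name rule found 39 symbols, of which 38 are described; the other, and 1 gene of the cofactor list, are not reported here. All 38 were accounted for: called genes and ends of clusters by their arrays, others by ranges, and of each other list every called gene where 5 or fewer were called, otherwise the 4 with the smallest p. The members and lists were chosen with earlier results of these data known. Groups and replicate numbers came from the sample titles. Alternatives were pseudocounts of 1 and 128, no limit or the 50th percentile, quantile normalization, no intensity trend, the mean of all probe sets, the methods' t-test, a replicate block, leaving out each array and, added after the data were seen, a term for the Xist split. Promoter features were counted in Python 3.11.15.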

Additional observations from a re-analysis of the deposited data

How the results depend on the processing

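The count of 4 Hox genes that rose was 3 to 5 under every alternative except the methods' t-test with Benjamini-Hochberg adjustment, which called 0 Hox genes in either direction and 2 genes up and 2 down over the whole array. At an unadjusted p of 0.05 the methods' t-test found 3 Hox genes higher and 0 lower. At that level limma, another test, found 4554 of the 14944 tested genes. The count of 3 is therefore not read as a result about Hox genes. The count of Hox genes that fell, 1, was 0 with the 50th percentile filter, which no longer tested Hoxd12, and 2 with quantile normalization, and over fits without 1 array it ran from 0 to 3. Hox genes that rose ran from 4 to 5 in those fits. Over the whole array, genes that rose ran from 928 to 1562 and genes that fell from 385 to 1170 without 1 array, and 574 fell without the intensity trend. Leaving out an array leaves the group a lone array, which is assumed to vary like the other group. Among genes outside the clusters whose losses are not given above, the calls of Jarid2, Phc2, Pcgf6, Acan, Cnmd, Col1a1, Myod1, Chrna1, C1qb, Cd14, Cdh5, Plvap and Alas2 were lost without at least 1 array. Those of Phc2 (adjusted p = 0.0755), Acan (0.213), Cnmd (0.208), Col1a1 (0.108) and Cd14 (0.0730) were also lost without the intensity trend. Some calls were lost under further settings as well.

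Among Hox genes signs turned for those with small differences and for Hoxb8 and Hoxc11, and the cause was not tested. With quantile normalization the difference was -0.020 for Hoxa3, -0.00027 for Hoxa7, -0.027 for Hoxb6, -0.012 for Hoxb7, 0.028 for Hoxc8 and -0.024 for Hoxd3. Without 1 array the lowest and highest differences were -0.0050 and 0.089 for Hoxa2, -0.040 and 0.087 for Hoxa3, -0.038 and 0.14 for Hoxa6 and -0.036 and 0.041 for Hoxa7. They were -0.033 and 0.27 for Hoxa9, -0.070 and 0.11 for Hoxb6, -0.016 and 0.073 for Hoxb7 and -0.37 and 0.10 for Hoxb8, and -0.091 and 0.023 for Hoxc5, -0.073 and 0.072 for Hoxc8, -0.055 and 0.96 for Hoxc11 and -0.077 and 0.11 for Hoxd3.

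The labels give both groups replicate numbers 1 and 2 without saying that a number marks a shared litter or day, and the differences between replicates 1 and 2 correlated at -0.06 across genes between the groups. With the replicate block 4 Hox genes rose and 1 fell, and 1539 and 972 genes over the whole array. The block changed the call of no Hox gene, and among the other genes called here it ended the calls of Psip1 (adjusted p = 0.0506), Plvap (0.0529) and Alas2 (0.0571).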
